A study of Mus musculus with 21 samples.

Results

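The genes described here present protein fragments to T cells. They are the 24 protein-coding genes of the deposited table whose names start with H2-, the mouse major histocompatibility complex (MHC), together with B2m, Tap1, Tap2, Tapbp, Psmb8, Psmb9, Psmb10, Cd74, Ciita and Nlrc5. That makes 34 members of 23713 genes. Another 7 rows with H2- names carry another biotype and are not members. Of the 34 members, 29 lie on chromosome 17, and B2m lies on chromosome 2, Psmb10 and Nlrc5 on 8, Ciita on 16 and Cd74 on 18.

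RNA was measured by bulk sequencing of keratinocytes from mouse tail skin in 3 models of basal cell carcinoma (BCC), each with control mice whose epidermis bore no tumour (Con), with 3 Con and 4 BCC libraries per model and 21 libraries in all. SmoM2 names a constitutively active Smoothened, the membrane protein that relays the Hedgehog signal. Gnas-eKO names a loss of Gnas, the gene of the G protein alpha subunit that stimulates cAMP synthesis, and PKI names an inhibitor of protein kinase A. SmoM2 mice and their controls were sampled 29 days after tumour induction (batch A), Gnas-eKO mice and theirs after 42 days (batch B) and PKI mice and theirs after 57 days (batch C), so model, batch and day cannot be told apart between models. The labels do not give the strain, the age, the genotype of the controls, or the promoter that drives each construct. Nothing beyond separate animal names in the file headers says that the libraries of a group are independent, so p-values measure the spread between these libraries. In those headers, SmoM2 BCC animals carry another name prefix (BF) than SmoM2 Con animals (TJ), a prefix the latter share with all Gnas-eKO animals, while all PKI animals carry ZQ. No source explains the prefixes, and the tumour cannot be told apart in SmoM2 from whatever they mark.

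MHC class I molecules are a heavy chain (in mice H2-K1 and H2-D1, and the less variable class Ib chains of the H2-Q, H2-T and H2-M series) bound to beta-2 microglobulin, the product of B2m. The immunoproteasome subunits Psmb8, Psmb9 and Psmb10 cut proteins into peptides, the Tap1 and Tap2 pump moves them into the endoplasmic reticulum, and tapasin (Tapbp) helps load them. Most cells, keratinocytes included, make class I, and interferon gamma raises it, with Nlrc5 as the transcriptional activator. Class II molecules (H2-Aa with H2-Ab1, and H2-Eb1 with its alpha chain) are made mainly by professional antigen-presenting cells, which in the epidermis are Langerhans cells, under the control of Ciita. The invariant chain Cd74 occupies their groove until H2-DM exchanges it for peptide, a step that H2-O restrains.

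Levels are given in CPM, counts scaled to a common library size with TMM factors. The keratinocyte marker Krt14 stood at 3856 to 15200 CPM in the 21 libraries, so the labelled cell type is present in each. Library totals ran from 16645858 to 22251132 counts, and 3 counts, the upper limit that a count of 0 allows, equal at most 0.189 CPM, which covers counting error only. A gene is called when its adjusted p (edgeR quasi-likelihood test, Benjamini-Hochberg over all genes tested) is under 0.05. Close copies limit some members: of all 50-base windows of the transcripts, between 9.63% (H2-K1) and 34.5% (H2-T22) in H2-K1, H2-D1, the H2-Q members and H2-T22 and H2-T23 also occur in another gene, as do 22.7% in H2-DMb1, 24.8% in H2-DMb2 and 70.5% in H2-Ke6, so their counts are uncertain. Tap1 and Psmb9 overlap on opposite strands, and Tap2, Tapbp, H2-DMa, H2-Q4, H2-T22, H2-T23, H2-T24, Ciita and Nlrc5 each overlap another gene, mostly on the other strand. Whether the authors' counting used the strand is not stated, so those counts are uncertain too. Per kilobase of exon, a scale on which genes can be compared, mean levels over the 21 libraries were highest for B2m and H2-D1 (156 CPM per kb each), with Cd74 at 59.9, H2-K1 at 58.4, Tapbp at 31.0 and H2-Ab1 at 20.6. The order differed between groups, since the mean of Cd74 ran from 25.9 CPM per kb in PKI Con to 148 in PKI BCC, below H2-K1 in the former (55.8) and above it in the latter (96.4). Ciita stood at 0.277 and H2-Eb2 at 0.0101 CPM per kb.

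RefSeq promoters (build GRCm38.p6, 250 bases before to 50 after the start) were found for 27 of the 34 members. The letters CCAAT, the core of the box bound by NF-Y, were present on either strand in 23 of these 27 (85.2%), against 37.4% of all 32851 promoters in the table. GAAA followed after any 2 bases by GAAA, the core of sites of interferon regulatory factors, was present in 3 (B2m, H2-T22 and H2-T23; 11.1% against 3.44%), and TTCNNNGAA, the core of STAT sites, in 3 (H2-DMb2, H2-M3 and Psmb8; 11.1% against 8.30%). TTCNNNGAA reads the same on both strands, and within a member's promoter no match of one motif overlapped a match of another. These are matches of letters and say nothing about binding. Looser forms of these sites were not searched for, so a promoter without a match may still hold one. In 7 members (H2-D1, H2-K1, H2-Q4, H2-Q6, H2-Q7, H2-T22 and H2-Eb1), a CCAAT on the reverse strand (read as ATTGG) is followed by a CCAAT 23 to 25 bases further on, a spacing looked for after the sequences were seen. This pair is in 25.9% of the members' promoters and in 0.216% of all promoters. All of the 7 but H2-Eb1 are class I genes that share transcript sequence with other H2- genes. They are not independent cases, and these shares are description only. The 250 bases before the start of 4 members are shown, with the motif matches in capitals: H2-K1 and H2-Q7 for that pair of boxes, B2m for GAAACTGAAA, and H2-Aa as the class II chain. They lie at chr17:34000334-34000583 (minus strand), chr17:35438905-35439154 (plus), chr2:122147437-122147686 (plus) and chr17:34287824-34288073 (minus). For H2-K1 the entry with more matches before its start is shown, and its stretch reaches into the annotated gene, which runs from 34000347 on the minus strand. In the other H2-K1 entry (chr17:34000348-34000597 before the start) the second CCAAT of the pair lies after the start.
H2-K1: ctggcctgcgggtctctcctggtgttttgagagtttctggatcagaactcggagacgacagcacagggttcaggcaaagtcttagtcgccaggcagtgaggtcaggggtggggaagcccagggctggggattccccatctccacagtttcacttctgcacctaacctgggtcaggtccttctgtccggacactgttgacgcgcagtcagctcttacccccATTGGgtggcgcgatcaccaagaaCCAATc
H2-Q7: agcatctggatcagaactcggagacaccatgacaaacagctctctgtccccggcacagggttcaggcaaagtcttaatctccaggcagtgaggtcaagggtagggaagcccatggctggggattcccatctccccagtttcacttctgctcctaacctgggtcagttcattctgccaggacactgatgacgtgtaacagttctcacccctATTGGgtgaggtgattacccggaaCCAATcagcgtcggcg
B2m: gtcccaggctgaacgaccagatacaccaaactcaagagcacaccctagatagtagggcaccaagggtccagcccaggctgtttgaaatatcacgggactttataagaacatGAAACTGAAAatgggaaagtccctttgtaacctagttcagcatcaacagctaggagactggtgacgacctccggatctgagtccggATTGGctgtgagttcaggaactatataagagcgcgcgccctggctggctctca
H2-Aa: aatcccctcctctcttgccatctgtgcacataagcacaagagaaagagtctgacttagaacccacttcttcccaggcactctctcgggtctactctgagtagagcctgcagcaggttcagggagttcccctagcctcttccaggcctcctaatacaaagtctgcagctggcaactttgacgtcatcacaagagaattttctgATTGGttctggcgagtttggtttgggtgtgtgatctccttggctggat

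In SmoM2 tumours genes of the class I pathway rose, while no class II gene was called. Of 30 members tested, 14 rose and 0 fell, and all 14 belong to class I or its regulator Nlrc5, namely both class Ia chains, 6 of 11 class Ib chains, 5 of 7 loading genes and Nlrc5. Over all genes, 16.2% were called higher in this comparison, 13.5% lower and 29.7% in either direction. Of the 26 members with a mean of at least 1 CPM, 13 lay above Con in all 4 tumours and 0 below, against 20.0% and 20.5% of all such genes. The members' median log2 fold change was 0.54, and that of all genes tested was 0.00. H2-Eb2, H2-Oa, H2-Ob and H2-T24 were too low to be tested. Bulk levels do not tell more cells of a type from more RNA per cell, here and in every comparison that follows.

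The steepest well-measured rise was that of Psmb8 (chromosome 17, 34197721 to 34201454, plus strand), a catalytic subunit of the immunoproteasome. It stood at 4.45, 3.50 and 5.35 CPM in the 3 SmoM2 Con libraries and at 32.0, 33.0, 20.9 and 19.7 CPM in the 4 BCC libraries. The groups did not overlap, and the lowest tumour lay far above the highest control. Its log2 fold change was 2.59 (SE 0.25, adjusted p 9.69e-05). Psmb9, its partner subunit, rose by 1.64 on the log2 scale (SE 0.29, adjusted p 0.00253), its mean ± SD, written so throughout, being 2.62 ± 0.778 CPM over 3 Con libraries and 8.04 ± 2.50 over 4 BCC libraries. Psmb10, the third subunit, was at 7.52 ± 1.11 and 7.76 ± 1.04 CPM and was not called (log2 fold change 0.06, adjusted p 0.814). The constitutive subunits Psmb5, Psmb6 and Psmb7, which the immunoproteasome subunits replace, were not called either, 0 of 3.

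Tap1, one chain of the peptide pump, stood at 30.2, 26.3 and 32.8 CPM in Con and at 65.7, 63.7, 51.6 and 48.2 CPM in BCC. All 4 tumours exceeded all 3 controls, and the log2 fold change was 0.96 (SE 0.13, adjusted p 0.000492). Tap2, the other chain, rose by 0.84 (SE 0.21, adjusted p 0.0217), from 31.4 ± 7.38 to 55.6 ± 12.3 CPM. Its call was lost without Con replicate 1, Con replicate 2 or BCC replicate 1. Tapbp, already at 106 ± 10.2 CPM in Con, was at 121 ± 11.5 CPM in BCC and was not called (0.21, adjusted p 0.123).

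The heavy chains moved less in proportion. H2-K1 (chromosome 17, 33996017 to 34000347, minus strand) stood at 92.1, 91.5 and 87.3 CPM in Con and at 169, 154, 142 and 137 CPM in BCC. Its groups were far apart for their spread, with a log2 fold change of 0.75 (SE 0.08, adjusted p 0.000116). H2-D1 stood at 382, 352 and 345 CPM in Con and at 497, 456, 412 and 390 CPM in BCC. The lowest tumour was only just above the highest control, and its log2 fold change of 0.30 (SE 0.09, adjusted p 0.0317) did not pass without Con replicate 2, Con replicate 3, BCC replicate 1 or BCC replicate 2. B2m, the light chain they share, rose by 0.55 (SE 0.09, adjusted p 0.0017), from 90.9 ± 4.15 to 132 ± 14.8 CPM.

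Among class Ib chains, H2-Q7, H2-M3, H2-Q6, H2-Q10, H2-Q4 and H2-T23 rose. H2-Q7, which encodes a Qa-2 antigen, was at 0.458, 0.688 and 0.0612 CPM in Con and at 2.79, 3.02, 2.72 and 1.18 CPM in BCC. All tumours lay above all controls at these low levels (log2 fold change 2.61, SE 0.58, adjusted p 0.00852). H2-M3, which presents formylated peptides, rose by 2.29 (SE 0.46, adjusted p 0.0048), but its mean was 0.944 CPM in BCC and 0.191 in Con, near the 3-count limit. H2-Q4 and H2-T23 (the Qa-1 chain, a ligand of natural killer cell receptors) were better measured, with log2 fold changes of 0.58 and 0.52 (SE 0.11 and 0.10). H2-Q10 (1.27, adjusted p 0.0417) kept its call in 1 of 7 fits that each left out 1 library, the one without BCC replicate 3. H2-M2, H2-M5, H2-Q1, H2-Q2 and H2-T22 were not called, with log2 fold changes of 0.02 to 0.81.

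Nlrc5, the class I activator, stood at 4.08, 2.75 and 1.51 CPM in Con and at 9.53, 9.75, 7.82 and 5.24 CPM in BCC. The groups did not overlap (log2 fold change 1.54, SE 0.34, adjusted p 0.00802). Ciita, its class II counterpart, was at 1.31 ± 0.142 and 1.35 ± 0.591 CPM (log2 fold change 0.06, adjusted p 0.932).

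Of the class II chains and Cd74, 0 of the 4 tested were called in SmoM2, and 0 of 3 class II loading genes. At an unadjusted p under 0.05 the counts were also 0 and 0. H2-Aa stood at 30.9, 34.2 and 40.6 CPM in Con and at 30.4, 44.7, 32.0 and 20.2 CPM in BCC, and the groups overlapped widely (log2 fold change −0.13, SE 0.24). Cd74 was at 54.2 ± 8.52 CPM in Con and at 51.9 ± 18.5 CPM in BCC. H2-Ab1 had a log2 fold change of 0.39 (SE 0.19, adjusted p 0.174), and it passed without Con replicate 3 or BCC replicate 4 (adjusted p 0.0487 and 0.0361). Markers of leukocytes were called in 0 of 5 genes and those of Langerhans and dendritic cells in 0 of the 5 tested. The summed leukocyte markers were at 12.8 to 15.1 CPM in Con and 11.0 to 16.5 CPM in BCC, and the summed Langerhans and dendritic cell markers at 27.1 to 36.6 and 25.6 to 36.5 CPM. Other lists did move: the 6 fibroblast genes summed to 17.1 to 39.8 CPM in Con and 387 to 525 CPM in BCC, the 8 macrophage genes to 9.62 to 9.82 and 10.4 to 16.0 CPM, and the 9 T cell genes to 6.61 to 9.92 and 10.1 to 14.4 CPM, while the 7 keratinocyte genes summed to 53518 to 69822 and 36717 to 52015 CPM. Of the fibroblast list 2 of 6 genes rose (Dcn and Col1a2), of the macrophage list 1 of 3 tested (Cd68) and of the T cell list 1 of 5 tested (Cd5), while of the keratinocyte list 2 of 7 rose (Dsg3 and Trp63) and 4 fell (Krt14, Krt10, Krt5 and Perp). Their part in the class I result was not tested.

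In a single fit of all 21 libraries, 4 of the 14 calls remained, those of Psmb8, Psmb9, Tap1 and H2-M3. That fit called 4 of 32 members higher, and over all genes it called 2133 of 17695 higher and 1885 lower. The log2 fold change of Nlrc5 was 1.53 there and 1.54 within the model, with adjusted p 0.0582 and 0.00802, and the cause of the lost calls was not tested.

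**Figure D1:**
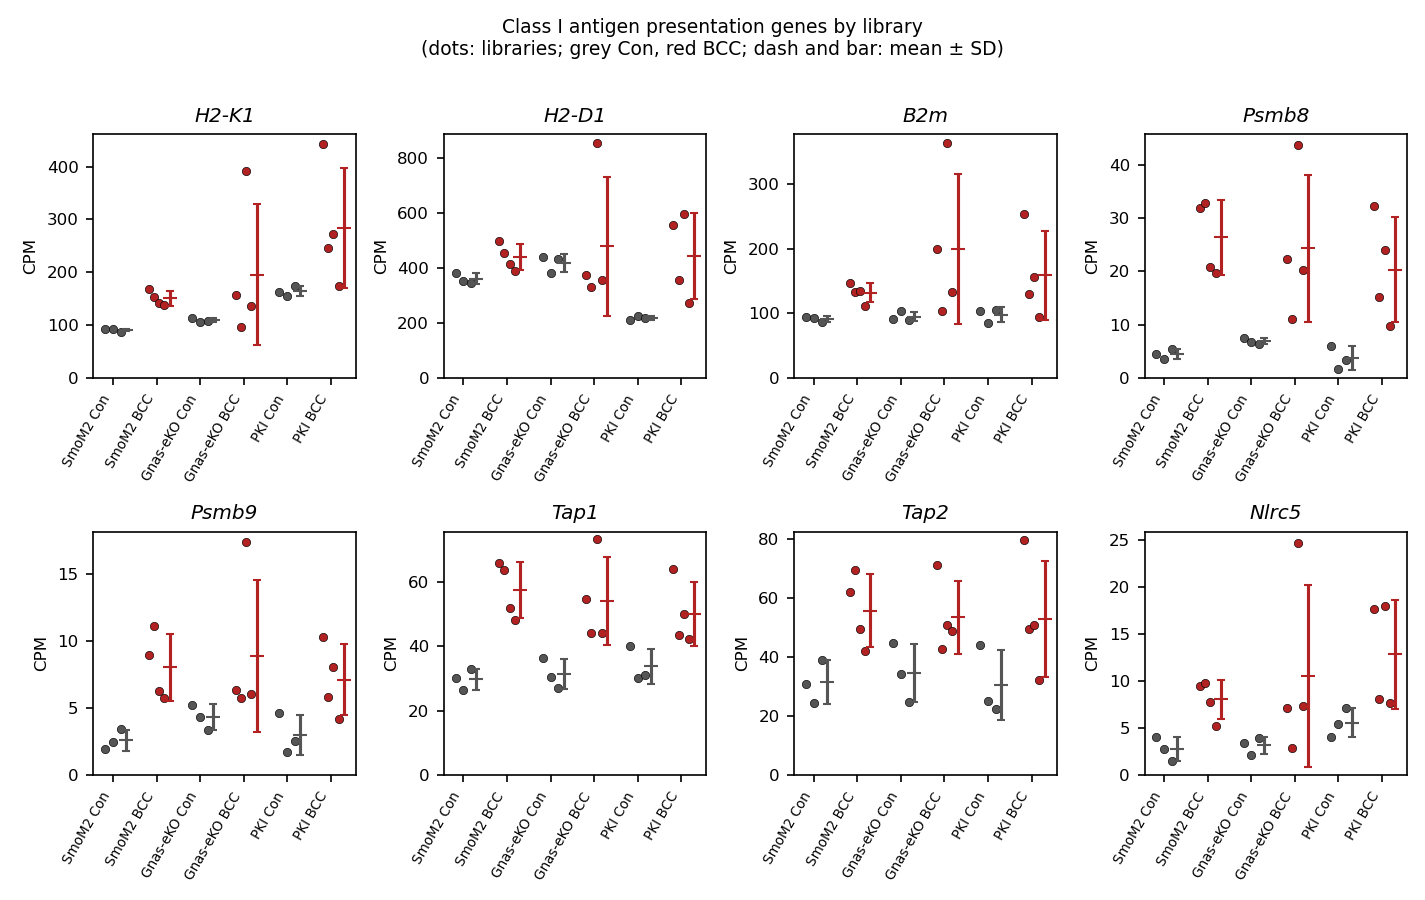
Levels in CPM (y axes, from 0) of 8 class I genes in each of the 21 libraries, with groups on the x axes, dots for libraries and a dash with a bar for the mean ± SD. In SmoM2 the 4 BCC dots lie above the 3 Con dots in all 8 panels; in Gnas-eKO replicate 3 is the highest of the BCC dots in each panel except that of Tap2, where replicate 1 is.

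In Gnas-eKO tumours no member was called, and the 4 tumour libraries differed widely from one another. Of 31 members tested, edgeR called 0, where 1.46% of all genes were called higher, 0.165% lower and 1.63% in either direction. At an unadjusted p under 0.05 there were 14 members, the DESeq2 Wald test called 6, limma called 0, and the single fit of all 21 libraries called 9, all of them higher. Over all 16409 genes, 3212 had an unadjusted p under 0.05, the DESeq2 Wald test called 1113 higher and 422 lower, and limma called 264. The single fit called 1573 of 17695 genes higher and 1071 lower. The median log2 fold change of the members was 0.80 against 0.02 for all genes, and 27 of 31 values were above 0, against 52.4% of all genes. H2-Eb2, H2-Oa and H2-T24 were too low to be tested.

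BCC replicate 3 had the highest level of most class I genes. H2-D1 stood at 441, 380 and 431 CPM in Gnas-eKO Con and at 372, 330, 855 and 355 CPM in BCC. The other 3 tumours lay below every control for this gene. H2-K1 stood at 113, 105 and 108 CPM in Con and at 156, 95.3, 392 and 136 CPM in BCC, so that replicate 2 was below the controls and replicate 3 far above. Nlrc5 stood at 3.39, 2.18 and 3.93 CPM in Con and at 7.15, 2.95, 24.7 and 7.35 CPM in BCC, again with replicate 2 among the controls. H2-Q7 reached 25.9 CPM in replicate 3 and H2-Q10 reached 10.5 CPM, against 0.646 to 3.04 and 0.702 to 1.36 CPM in the other 3 tumours.

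Psmb8 and Tap1 had the lowest adjusted p of the members. Psmb8 stood at 7.44, 6.76 and 6.43 CPM in Con and at 22.3, 11.0, 43.7 and 20.2 CPM in BCC, above every control in all 4 tumours (log2 fold change 1.83, SE 0.42, adjusted p 0.0668). Tap1 stood at 36.4, 30.5 and 27.0 CPM in Con and at 54.7, 44.0, 73.1 and 44.2 CPM in BCC, again without overlap (0.80, SE 0.21, adjusted p 0.0905). Of the 29 members with a mean of at least 1 CPM, 8 lay above Con in all 4 tumours (B2m, H2-Ab1, H2-DMb2, H2-M3, H2-Q10, Psmb8, Psmb9 and Tap1), and 0 lay below, against 10.1% and 10.3% of all such genes. Without BCC replicate 2, 6 members were called (B2m, H2-Q6, H2-T23, Nlrc5, Psmb8 and Tap1), all higher. Calls rose over all genes as well, to 1192 higher and 718 lower of 16195 without replicate 2, from 240 and 27 with it. That library was nearest to Con for Psmb8, with 11.0 CPM, and carried the most fibroblast markers, a sum of 579 CPM against 94.2 to 286 in the other tumours and 15.9 to 27.4 in Con. Its keratinocyte markers were also the highest of the tumours.

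Most class II genes in Gnas-eKO were highest in another library. Cd74 stood at 79.1, 84.7 and 56.3 CPM in Con and at 189, 84.0, 66.5 and 57.9 CPM in BCC. Only replicate 1 exceeded the controls, as it did for Ciita (6.78 CPM against 1.22 to 2.63 in Con). For H2-Aa it was the highest with 105 CPM, and replicate 2 (56.2 CPM) also lay above the controls (32.7 to 51.6 CPM). Replicate 1 also had the highest sums of leukocyte markers (43.5 CPM against 16.2 to 29.6 in the other tumours and 17.8 to 18.2 in Con), of Langerhans and dendritic cell markers (97.5 against 40.4 to 51.9 and 40.5 to 41.2) and of macrophage markers (29.7 against 13.3 to 19.4 and 10.9 to 12.7). Replicate 3, the library with the highest class I levels, had 51.9 CPM of Langerhans and dendritic cell markers and the highest T cell sum, 22.7 CPM. The part of these cells in either result was not tested.

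In PKI tumours class II rose together with part of class I. Of 27 members tested, 18 rose and 1 fell. Over all genes, 18.7% were called higher, 15.8% lower and 34.5% in either direction. Of the 27 members with a mean of at least 1 CPM, 18 lay above Con in all 4 tumours and 1 below, against 22.9% and 21.7% of all such genes. The members' median log2 fold change was 1.49 against 0.00 for all genes tested. The called members were all 4 tested class II genes, all 3 tested class II loading genes, both regulators, 4 of 7 class I loading genes, 4 of 8 class Ib chains and H2-D1 among the class Ia chains, while H2-Ke6 fell. H2-Eb2, H2-Oa, H2-Ob, H2-Q1, H2-Q2, H2-Q10 and H2-T24 were too low to be tested.

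H2-Aa (chromosome 17, 34282744 to 34287823, minus strand), the alpha chain of the I-A molecule, stood at 27.5, 12.4 and 9.37 CPM in PKI Con and at 160, 96.2, 92.8 and 75.0 CPM in BCC. Every tumour exceeded every control (log2 fold change 2.70, SE 0.46, adjusted p 0.00551). Its partner H2-Ab1 rose by 2.70 (SE 0.59, adjusted p 0.0159), with 19.4 ± 14.6 CPM in Con and 125 ± 52.6 CPM in BCC. H2-Eb1, the beta chain of I-E, stood at 20.4, 8.14 and 6.24 CPM in Con and at 124, 75.4, 30.6 and 53.6 CPM in BCC. The groups did not overlap (2.62, SE 0.65, adjusted p 0.0247), but its call was lost without Con replicate 2, Con replicate 3 or BCC replicate 2. The row of its alpha chain, H2-Ea, had no counts in any PKI library but BCC replicate 3, as given at the end. A rise of H2-Eb1 therefore does not show a rise of the I-E molecule.

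Cd74, the invariant chain, stood at 81.1, 27.5 and 22.1 CPM in Con and at 377, 246, 189 and 183 CPM in BCC. Con replicate 1 was the highest control and BCC replicate 1 the highest tumour, as for the class II chains (2.53, SE 0.56, adjusted p 0.0172, lost without Con replicate 2). The loading genes H2-DMb2, H2-DMa and H2-DMb1 rose by 3.09, 2.05 and 1.58 (SE 0.44, 0.37 and 0.36). H2-Oa and H2-Ob were at 0 in all 3 PKI Con libraries, which allows up to 0.189 CPM in the shallowest, and at 0.222 to 0.329 and 0.206 to 0.667 CPM in the 4 tumours. Ciita stood at 1.77, 0.821 and 0.961 CPM in Con and at 8.72, 5.26, 5.25 and 5.81 CPM in BCC, well apart (2.39, SE 0.33, adjusted p 0.000869).

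Markers of immune cells were higher in the same libraries. All 5 leukocyte genes, 6 of 7 tested Langerhans and dendritic cell genes, 7 of 8 macrophage genes and 7 of 8 tested T cell genes rose in PKI. Cd207, the langerin gene that marks Langerhans cells, stood at 6.73, 3.03 and 2.52 CPM in Con and at 17.7, 15.9, 17.0 and 12.8 CPM in BCC, and Ptprc, the CD45 gene of all leukocytes, at 4.35, 3.41 and 1.92 and at 20.0, 14.5, 16.3 and 11.0 CPM. Both were without overlap and highest in replicate 1 of each group. The summed leukocyte markers ran from 7.98 to 21.1 CPM in Con and from 54.5 to 129 CPM in BCC, the Langerhans and dendritic cell markers from 20.0 to 49.1 and from 129 to 179 CPM, the macrophage markers from 4.80 to 12.4 and from 30.3 to 63.3 CPM, and the T cell markers from 12.3 to 19.8 and from 28.6 to 46.0 CPM. Of the Langerhans and dendritic cell list, Flt3, Clec10a and Xcr1 were at 0 in all PKI Con libraries. The summed class II members ran from 47.7 to 165 CPM in Con and from 397 to 861 CPM in BCC. Other lists moved as well. Of the fibroblast genes 3 of 6 rose (Dcn, Lum and Col3a1), with sums of 15.8 to 43.5 CPM in Con and 84.4 to 145 in BCC. Of the melanocyte genes 3 of 4 fell, with sums of 140 to 187 and 68.8 to 109 CPM. The only neutrophil gene tested, Cxcr2, rose, and of the 7 keratinocyte genes 2 rose and 1 fell. The part of these cells in the class I and class II results was not tested.

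**Figure D2:**
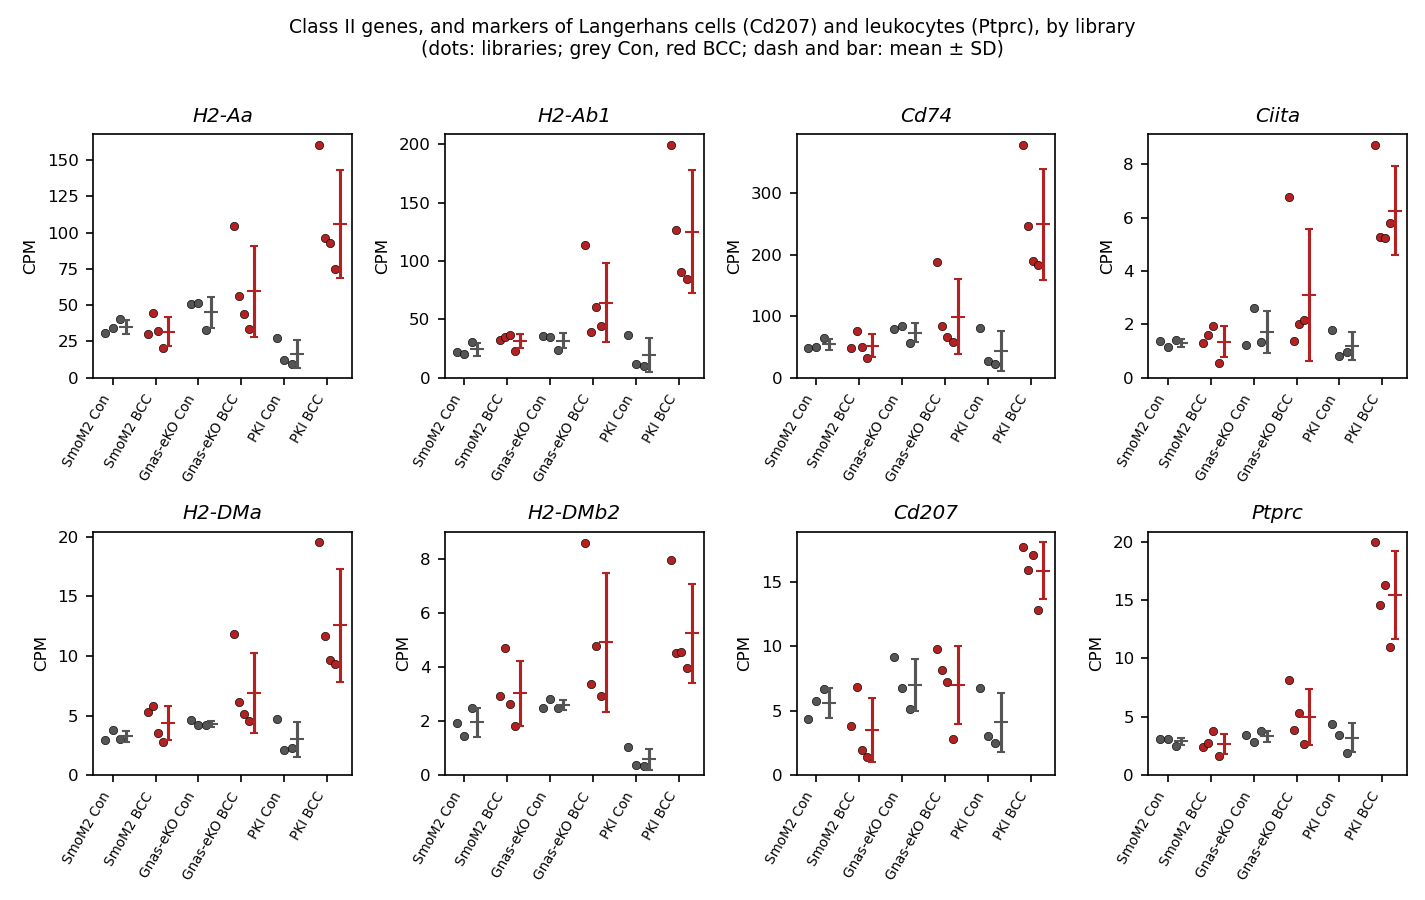
Levels in CPM (y axes, from 0) of 6 class II genes and of the markers Cd207 and Ptprc in the 21 libraries, with dots for libraries and a dash with a bar for the mean ± SD. The 4 PKI BCC dots lie above the 3 PKI Con dots in all 8 panels, and in Gnas-eKO the highest BCC dot is replicate 1 in each panel.

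**Figure D3:**
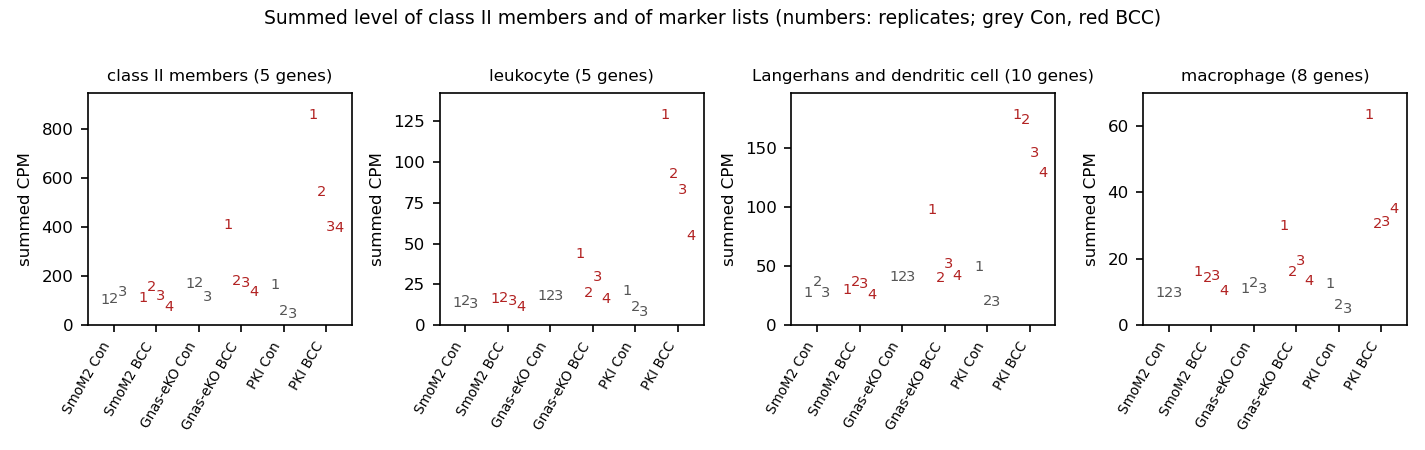
Summed CPM (y axes, from 0) of the 5 class II members and of 3 marker lists in each group, with each library drawn as its replicate number. PKI BCC lies above PKI Con in all 4 panels, with replicate 1 highest in each, and Gnas-eKO BCC replicate 1 stands above the other 3 tumours of its group.

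On the class I side of PKI, Psmb8 stood at 6.03, 1.64 and 3.42 CPM in Con and at 32.3, 15.2, 24.1 and 9.71 CPM in BCC. All tumours lay above all controls (2.45, SE 0.55, adjusted p 0.0139, lost without Con replicate 3). Psmb10, which was not called in the other models, rose by 0.87 (SE 0.21, adjusted p 0.0106), from 8.31 ± 1.44 to 15.1 ± 3.80 CPM. Psmb9 rose by 1.26 and Tap1 by 0.58 (SE 0.39 and 0.16, adjusted p 0.0361 and 0.0222). The call of Psmb9 held in 2 of the 7 fits without 1 library, those without Con replicate 1 or BCC replicate 4, and that of Tap1 was lost without Con replicate 2 or Con replicate 3. Tap2 (0.81, adjusted p 0.12), B2m (0.71, adjusted p 0.138) and Tapbp (0.16, adjusted p 0.394) were not called.

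H2-K1 stood at 163, 155 and 173 CPM in Con and at 443, 245, 271 and 173 CPM in BCC. BCC replicate 4 was level with the controls, and H2-K1 was not called (0.80, SE 0.29, adjusted p 0.0715). H2-D1 stood at 210, 224 and 216 CPM in Con and at 557, 355, 594 and 271 CPM in BCC, without overlap (1.05, SE 0.27, adjusted p 0.0216), but its call was lost without any 1 of the Con libraries or BCC replicate 1. Its highest value was that of BCC replicate 3, a library that lay between the models for several H2- rows, as given at the end. Among class Ib chains H2-M5, H2-Q7, H2-M2 and H2-Q6 rose by 2.89, 2.86, 2.21 and 2.15, with means of 2.76, 5.61, 7.49 and 2.95 CPM in BCC. The call of H2-Q6 held only without Con replicate 2 or BCC replicate 4. H2-T22, H2-T23, H2-M3 and H2-Q4 were not called, with log2 fold changes of −0.32, 0.10, 0.86 and 1.49. Nlrc5 rose by 1.22 (SE 0.38, adjusted p 0.0397), and its call held in 2 of 7 fits without 1 library (without BCC replicate 2 or 4) and not in the single fit of 21 libraries.

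H2-Ke6 is an exception by function, since despite its name it encodes a steroid dehydrogenase (Hsd17b8) and presents no antigen. It stood at 25.4, 27.6 and 29.5 CPM in Con and at 16.4, 17.5, 14.1 and 16.4 CPM in BCC. The groups did not overlap, and it fell by 0.76 on the log2 scale (SE 0.11, adjusted p 0.001).

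**Figure D4:**
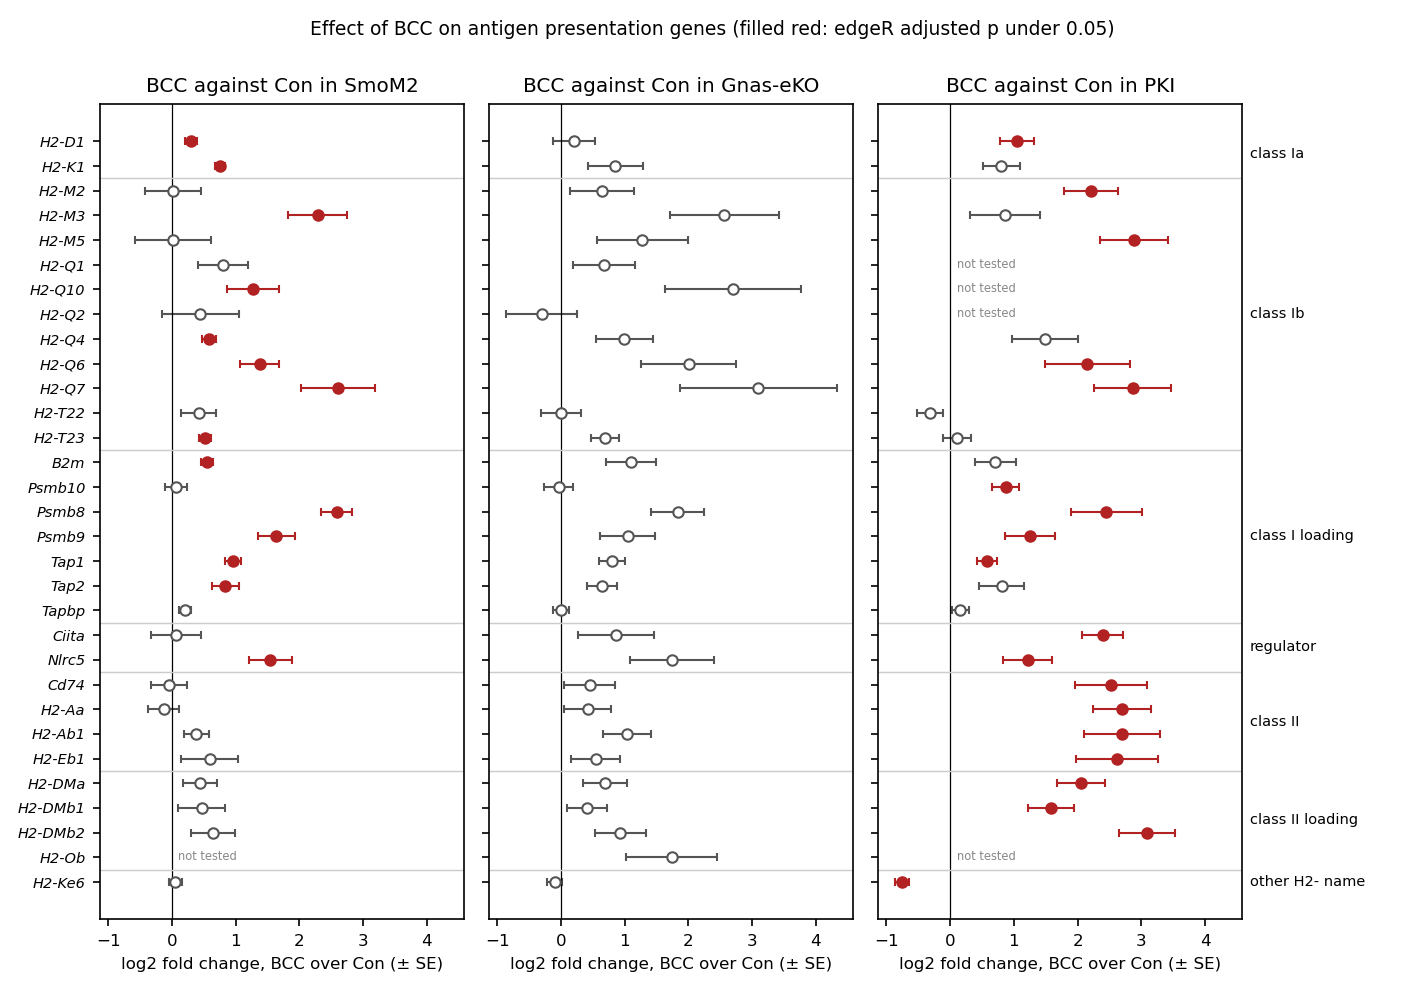
Log2 fold change of BCC over Con (x axes) with its SE for each member tested in 1 model or more (y axis, ordered by role), in the 3 models, filled red where the adjusted p is under 0.05. Red points are on class I rows and on Nlrc5 in SmoM2, on no row in Gnas-eKO, and on class I, class II and both regulator rows in PKI, with H2-Ke6 to the left of 0.

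Genes of the pathway outside the list were read in the same fits. Over all genes, 16.2% were called higher and 13.5% lower in SmoM2, 18.7% and 15.8% in PKI, and 1.46% and 0.165% in Gnas-eKO. In SmoM2, 1 of 8 further class I loading genes rose (Calr, the calreticulin chaperone, by 0.27, lost without Con replicate 1 or 2 or BCC replicate 1 or 3), and in PKI 4 of 8 did: Calr by 0.53, the peptide trimmer Erap1 by 0.50, Hspa5 by 0.40 (called in 2 of 7 fits without 1 library, those without BCC replicate 3 or 4) and the disulfide isomerase Pdia3 by 0.39. Of 4 class II processing genes, 0 were called in SmoM2 and 3 rose in PKI, led by Ctss (cathepsin S, which cuts the invariant chain), from 1.83 ± 0.838 to 17.7 ± 8.62 CPM (log2 fold change 3.27, SE 0.47, adjusted p 0.00184). Among 5 class I-like molecules, Fcgrt, Hfe, Mr1 and Cd1d1 rose in SmoM2 (1.79, 0.87, 0.83 and 0.65) and Ulbp1 fell by 1.06. The call of Cd1d1 was lost without Con replicate 2 or 3 or BCC replicate 2 or 3. In PKI, Ulbp1 rose by 0.70 and Mr1 fell by 0.40, each with a call that most fits without 1 library lost (5 and 6 of 7). Of 9 interferon gamma signalling genes, 3 rose and 1 fell in SmoM2 and 5 rose and 1 fell in PKI. Their median log2 fold change was −0.03 in SmoM2, with 4 of 9 values above 0, and 0.36 in PKI, with 7 of 9. Their sums were 510 to 562 CPM in SmoM2 Con and lower, 399 to 452 CPM, in SmoM2 BCC. They were also lower in Gnas-eKO BCC, 340 to 472 CPM, than in Gnas-eKO Con, 474 to 519 CPM. In PKI the sums were 503 to 510 CPM in Con and 486 to 571 CPM in BCC. Irf1, a factor induced by interferon, had log2 fold changes of 1.08 in SmoM2 and 1.53 in PKI (SE 0.25 and 0.35). Jak1, a kinase of the receptor, fell by 0.74 in SmoM2 and by 0.28 in PKI, the latter not without Con replicate 1 or 2. Of 7 factors that bind MHC promoters, Rfx5, Creb1 and Nfya rose in SmoM2 by 0.34, 0.33 and 0.32, calls that held in 1, 2 and 6 of 7 fits without 1 library, and 0 were called in PKI. In Gnas-eKO, 0 genes of these 5 lists and of the constitutive proteasome list were called.

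Between models, the rises overlapped in part. Of 27 members tested in both SmoM2 and PKI, 7 rose in both: H2-D1, H2-Q6, H2-Q7, Nlrc5, Psmb8, Psmb9 and Tap1. They are 53.8% of the 13 that rose in SmoM2 and 38.9% of the 18 that rose in PKI. Over the 15772 genes tested in both, 864 rose in both, 35.0% of those that rose in SmoM2 and 31.0% of those that rose in PKI. The difference between the 2 effects was then tested on the 14 libraries of both models.

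The effect in PKI exceeded that in SmoM2 for 10 of 31 members and was below it for 1, where 12.6% of all genes were called higher, 12.3% lower and 24.9% in either direction. Of the 10, 3 are class II genes, 3 are class II loading genes and 1 is the regulator Ciita. On the log2 scale, the differences were 2.82 for H2-Aa (SE 0.54, adjusted p 0.00335), 2.57 for Cd74 and 2.31 for H2-Ab1. They were 2.44 for H2-DMb2, 1.61 for H2-DMa and 2.33 for Ciita. H2-M5, H2-M2 and Psmb10 had differences of 2.86, 2.19 and 0.81, and H2-Ke6 had −0.81. H2-Ob, also a class II loading gene, was called as well. It was at 0 in PKI Con, so its fitted difference depends on the prior count and is no measure of size. H2-Eb1, with a difference of 2.03 (SE 0.99), was not called (adjusted p 0.162). None of the 14 members called in SmoM2 passed the test of this difference. Its values were −0.14 for Psmb8 (SE 0.63), −0.39 for Tap1 (SE 0.22), 0.05 for H2-K1 (SE 0.32), −0.32 for Nlrc5 (SE 0.54) and 0.75 for H2-D1 (SE 0.30, adjusted p 0.0867), and a p that misses the threshold does not show that the effects were alike. H2-D1 passed with the DESeq2 Wald test (adjusted p 0.0341) and without PKI BCC replicate 4 (edgeR, adjusted p 0.00543). Leukocyte markers differed in the same contrast, with 5 of 5 genes higher in PKI, as did 5 of 7 of the Langerhans and dendritic cell markers. Leaving out 1 library ended the call of Psmb10 in 10 of 14 fits, of H2-M2 in 4 and of H2-DMa and H2-M5 in 3 each, among them those without PKI Con replicate 2 or 3, and that of H2-Ab1 without SmoM2 Con replicate 3. The members' count dropped to 6 without SmoM2 Con replicate 3, PKI Con replicate 2 or PKI Con replicate 3.

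Against Gnas-eKO, the PKI effect was higher for 2 of 31 members (H2-Aa by 2.29, SE 0.61, and H2-DMb2 by 2.17, SE 0.61) and lower for H2-Ke6 (−0.65, SE 0.16), where 4.49% of all genes were called higher, 4.57% lower and 9.06% in either direction. The calls of H2-Aa and H2-DMb2 held in 6 and 4 of 14 fits without 1 library. This count was unstable: it was 0 without Gnas-eKO Con replicate 1 or 2 or PKI Con replicate 2 or 3, 1 without Gnas-eKO BCC replicate 4 or PKI BCC replicate 1 or 2, 6 without PKI Con replicate 1 and 7 without Gnas-eKO BCC replicate 1. Between Gnas-eKO and SmoM2, edgeR called 0 of 32 members (0.0758% of all genes were called higher, 0.0991% lower and 0.175% in either direction), 0 had an unadjusted p under 0.05, and the DESeq2 Wald test and limma called 0 as well.

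The control groups were compared with one another, across batches and days, in a fit of the 9 Con libraries. Gnas-eKO and SmoM2 Con differed in 0 of 28 members (0.00614% of all genes were called), with 2 at an unadjusted p under 0.05 and 0 by the DESeq2 Wald test and by limma. Of these 28 members, 27 had a value above 0, higher in Gnas-eKO Con, and their median log2 fold change was 0.29, against 50.3% of all genes and a median of 0.00. PKI Con differed from SmoM2 Con in 7 of 28 members, 4 higher and 3 lower (1.0%, 0.792% and, in either direction, 1.79% of all genes), and from Gnas-eKO Con in 8 of 28, 4 higher and 4 lower (0.847%, 0.841% and 1.69%). These comparisons share the PKI Con libraries. All 4 higher members were the same in both: H2-Eb1, H2-T22, H2-T23 and H2-K1.

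H2-T22, a class Ib chain recognised by gamma delta T cells, stood at 27.0, 27.7 and 30.6 CPM in PKI Con, at 3.62, 3.32 and 2.82 CPM in SmoM2 Con and at 4.56, 3.87 and 3.80 CPM in Gnas-eKO Con. The PKI controls were far above the others, with log2 fold changes of 3.13 (SE 0.15, adjusted p 2.2e-06) and 2.81 (SE 0.14, adjusted p 3.37e-06). H2-T23 stood at 64.0, 60.5 and 60.4 CPM in PKI Con, 15.3, 18.3 and 17.3 in SmoM2 Con and 20.9, 16.5 and 15.8 in Gnas-eKO Con, higher by 1.87 and 1.80 on the log2 scale (SE 0.11 each). H2-Eb1 was at 11.6 ± 7.66 CPM in PKI Con and at 0.828 ± 0.277 and 0.986 ± 0.235 CPM in the others, higher by 3.79 and 3.56 (SE 0.48 each), while H2-Aa, Cd74 and H2-Ab1 were not called in either contrast. Without PKI Con replicate 1, the PKI control with the highest levels of these genes, H2-Aa and Cd74 were called lower in both contrasts, as were H2-DMb2 against SmoM2 Con and H2-Ab1 against Gnas-eKO Con. The counts of lower members were then 6 and 7 in place of 3 and 4, with 4 higher in each as before. H2-K1 was higher by 0.87 and 0.60 (SE 0.06 each).

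In the other direction, H2-D1 stood at 217 ± 7.15 CPM in PKI Con, below the 360 ± 19.8 of SmoM2 Con (−0.72, SE 0.08, adjusted p 0.000709) and the 417 ± 32.4 of Gnas-eKO Con (−0.94, SE 0.08, adjusted p 0.00012). H2-Q4 stood at 6.37, 6.44 and 7.26 CPM in PKI Con against 20.5, 21.2 and 19.3 and 19.8, 20.4 and 22.9 CPM, lower by 1.60 and 1.64 (SE 0.11 each). H2-Q1 was at 0.0519 CPM or less in PKI Con, under the 3-count limit, and at 0.537 to 0.655 and 0.695 to 1.56 CPM in the others. It was called lower in both contrasts, against SmoM2 Con not without PKI Con replicate 2 or 3, and no fold is given for it. H2-DMb2 was called lower against Gnas-eKO Con (−2.06, SE 0.41, adjusted p 0.0356), a call lost without any 1 Gnas-eKO Con library or PKI Con replicate 2 or 3. In the fit of all 21 libraries the counts were 3 and 5, since H2-K1, H2-D1, H2-Q1 and H2-Q4 were lost against SmoM2 Con and H2-K1, H2-D1 and H2-Q4 against Gnas-eKO Con. Leukocyte markers did not differ past the threshold between controls, 0 of 5 in each contrast, and of the T cell markers 2 of 5 were higher in PKI Con than in SmoM2 Con.

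The offsets of H2-T22, H2-T23 and H2-Eb1 were also present in the PKI tumours. H2-T22 stood at 14.9 to 29.8 CPM in the 4 PKI BCC libraries and at 2.56 to 6.45 CPM in the 8 other tumours. H2-T23 stood at 40.9 to 86.6 CPM against 20.6 to 38.8, and H2-Eb1 at 30.6 to 124 CPM against 0.504 to 2.17. The ranges of H2-D1 (271 to 594 CPM in PKI BCC and 330 to 855 in the other tumours), H2-Q4 (7.34 to 32.3 and 20.1 to 84.7) and H2-K1 (173 to 443 and 95.3 to 392) overlapped. The highest PKI values of H2-D1 and H2-Q4 were those of BCC replicate 3, which was unlike the other PKI tumours in several H2- rows, as given at the end. Within PKI, H2-T22 and H2-T23 were not called between BCC and Con. Batch, day and model are one in these contrasts and cannot be told apart. The labels give neither the strain nor the MHC haplotype of the mice, and a difference in these, which can change how many reads match these variable genes, cannot be told apart from model either. The counts of the H2-T, H2-Q, H2-K1 and H2-D1 rows are uncertain because they share sequence, and H2-Eb1 shares none of its 50-base windows with another gene.

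**Figure D5:**
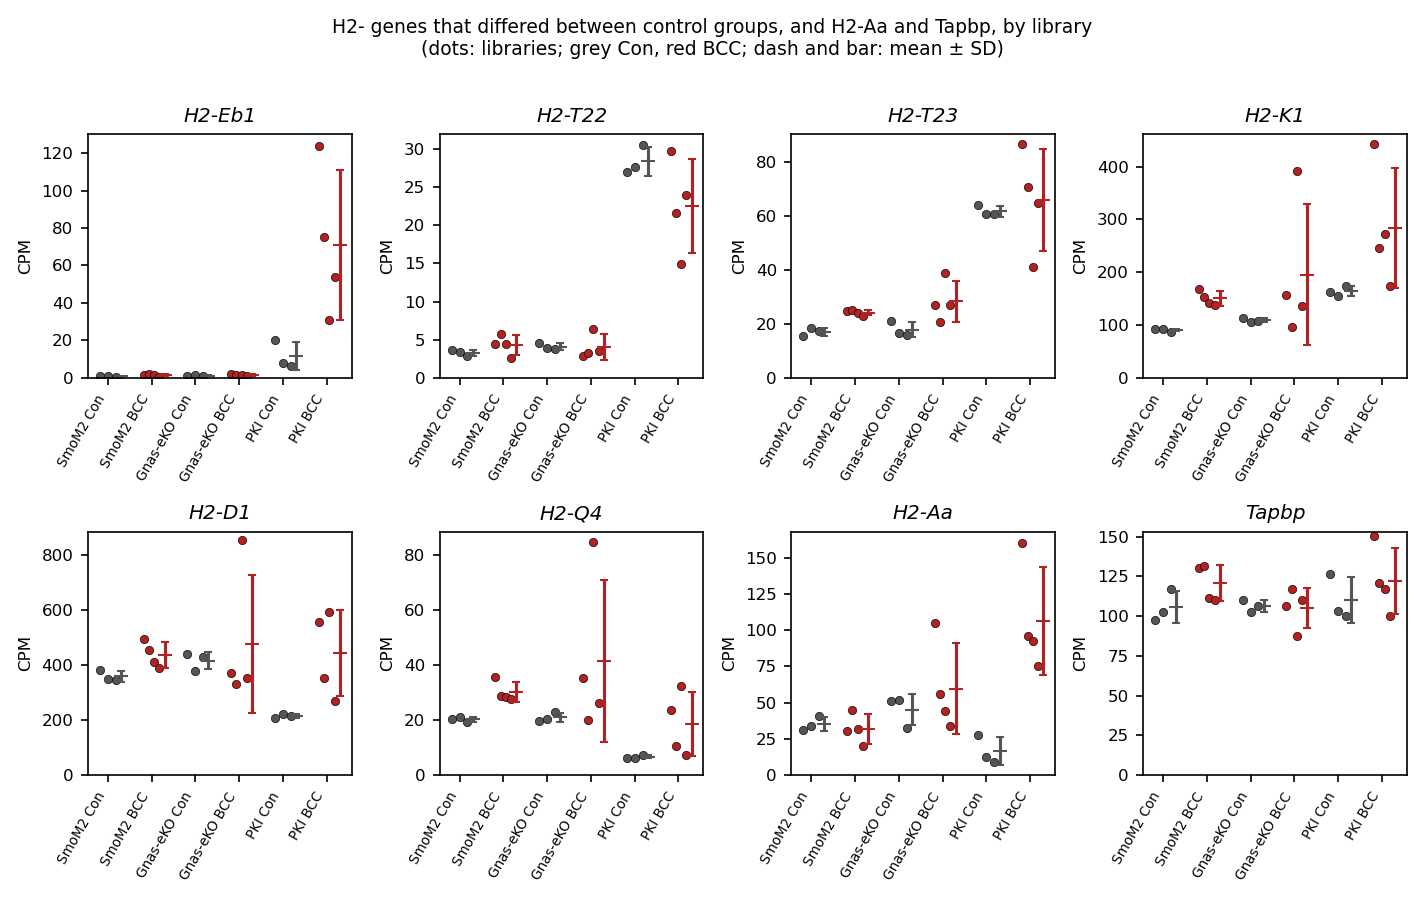
Levels in CPM (y axes, from 0) in the 21 libraries of 6 H2- genes that differed between controls, and of H2-Aa and Tapbp, with dots for libraries and a dash with a bar for the mean ± SD. The PKI Con dots of H2-T22 and H2-T23 lie above all 14 libraries of the other models, those of H2-D1 and H2-Q4 lie below the other Con dots, and those of Tapbp lie among the others.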

How the data were processed

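Bulk RNA of 21 libraries was analysed. The authors deposited estimated counts per gene without normalization; 22.7% of the values are not whole (tolerance 0.01), and no gene has a sum under 10. A second deposited table holds the authors' normalized signal, named TMM by them, which is each count times a factor per library plus 0.001. Per the submitters' processing notes, bcl2fastq 2.20, cutadapt 1.18, STAR 2.7.0f, Partek and mm10 were used, with no role given. Members were matched to GENCODE M21, all 34 with the same coordinates (ends 1 base lower than deposited).

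Counts were rounded and tested with edgeR 4.0.16 (R 4.3.3): filterByExpr by group, TMM, robust glmQLFit and glmQLFTest, Benjamini-Hochberg over all genes tested. BCC and Con were compared in the 7 libraries of a model, effects of 2 models as an interaction on 14 libraries, and controls on 9. SEs were derived from the fold change and F. Alternatives were DESeq2 1.42.0 (Wald test, and its size factors), no filter, a replicate block, limma-trend 3.58.1 on log2 of the signal plus 0.5, a fit of all 21 libraries, and each library left out. Simulated data were used for the SmoM2 effect, the Gnas-eKO minus SmoM2 interaction and the contrast of Gnas-eKO Con with SmoM2 Con only. They had the same spread for every gene, and changes were planted in well-counted genes. The simulation therefore does not cover the PKI fits, the spread of the Gnas-eKO tumours or members with low counts. Library totals of 16645858 to 22251132 set the depth, and floors cover counting error only. Members, roles and lists were chosen with earlier results of these data known; any tested member could be named, and of other lists at most 4 called genes a model. Lists were also read for B cells, neutrophils, endothelial cells and melanocytes.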

Additional observations from a re-analysis of the deposited data

Results flagged for a closer look

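In 88 groups of 4 tumour libraries (a member in a model), 11 held 1 library far from the other 3. The cut-off used marks about 5% of independent groups of normally distributed values. CPM need not be so distributed, and the groups are not independent, since members of a model share its libraries. The 11 therefore cannot be set against that share. Gnas-eKO BCC replicate 3 stood apart for 5 class I genes: H2-D1 (855 CPM, others 330 to 372), H2-Q7 (25.9, others 0.646 to 3.04), Psmb9 (17.4, others 5.73 to 6.37), H2-Q10 (10.5, others 0.702 to 1.36) and H2-M3 (4.06, others 0.536 to 0.87). Gnas-eKO BCC replicate 1 stood apart for Ciita (6.78 CPM, others 1.39 to 2.17) and for H2-M2 (6.46, others 1.71 to 2.52). PKI BCC replicate 1 stood apart for Ciita (8.72, others 5.25 to 5.81) and H2-DMb2 (7.97, others 3.96 to 4.56). In SmoM2, BCC replicate 1 was high for H2-Q4 (35.6, others 27.7 to 28.9) and BCC replicate 4 low for H2-Q7 (1.18, others 2.72 to 3.02).

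For 14 values, the effect of BCC differed between 2 models by the edgeR interaction test. The log2 effect in PKI minus that in SmoM2 was 2.57 for Cd74, 2.33 for Ciita, 2.82 for H2-Aa, 2.31 for H2-Ab1, 1.61 for H2-DMa, 2.44 for H2-DMb2, 2.19 for H2-M2, 2.86 for H2-M5, 0.81 for Psmb10 and −0.81 for H2-Ke6. For H2-Ob the fitted value was 5.82, which is no measure of size because PKI Con was at 0, and its call held in 3 of 11 fits without 1 library. The effect in PKI minus that in Gnas-eKO was 2.29 for H2-Aa, 2.17 for H2-DMb2 and −0.65 for H2-Ke6.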

How the results depend on the processing

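Over all alternatives, 803 of 931 values of called members kept their direction and their call, 128 kept the direction and lost the call, and 0 reversed; of 3337 values of members not called, 76 passed. Counts of called members moved by over 1.5 times as follows. In the fit of all 21 libraries, SmoM2 had 4 in place of 14, Gnas-eKO 9 in place of 0, PKI minus Gnas-eKO 5 in place of 3, PKI Con against SmoM2 Con 3 in place of 7 and against Gnas-eKO Con 5 in place of 8. Over all genes, that fit called 4018 in place of 4860, 2644 in place of 267 and 2316 in place of 1564. For the controls it called 241 in place of 292 and 230 in place of 275. With the DESeq2 Wald test, Gnas-eKO had 6 (1535 of all genes) and PKI minus Gnas-eKO 6 (2389), and with limma the latter had 5 (1706). The cause was not tested. Without 1 library, the counts ranged from 11 to 14 in SmoM2, 0 to 6 in Gnas-eKO, 13 to 22 in PKI, 6 to 12 for PKI minus SmoM2, 0 to 7 for PKI minus Gnas-eKO, 6 to 10 for PKI Con against SmoM2 Con and 7 to 11 against Gnas-eKO Con, and they were 0 throughout for Gnas-eKO minus SmoM2 and for Gnas-eKO Con against SmoM2 Con. Deviations from the group mean were correlated between Con and BCC libraries of one number. The values were −0.20 to −0.07 in SmoM2, 0.09 to 0.23 in Gnas-eKO and −0.01 to 0.30 in PKI. Among replicates 1 to 3, replicates 2 and 3 of Gnas-eKO Con correlated best with the BCC library of their own number. So did replicates 1 and 3 of PKI Con, but no SmoM2 replicate. The numbers were not taken to pair libraries, and whether they do in Gnas-eKO or PKI is not known. With the replicate number as a block, the counts were 14 in SmoM2 (H2-Ab1 in place of H2-Q10), 0 in Gnas-eKO, 24 in PKI, 0 for Gnas-eKO minus SmoM2, 12 for PKI minus SmoM2, 7 for PKI minus Gnas-eKO (all higher), and 0, 6 and 7 between controls. Depth limits H2-Eb2, H2-Oa, H2-Ob, H2-Q2 and H2-T24, whose means lay under 1 CPM in every group, and H2-Q1 in PKI.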

Other observations

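Of the 7 rows with H2- names of another biotype, H2-T10, H2-T-ps and H2-Ea also differed between models. Levels of the rest of these rows are not given here. H2-T10 was at 10.7, 9.98 and 11.0 CPM in SmoM2 Con and at 0.595, 0.331 and 0.766 CPM in PKI Con, with 11.1 to 18.2 CPM in the 8 SmoM2 and Gnas-eKO tumours. H2-T10 shares sequence with H2-T22, which was high where H2-T10 was low. H2-T-ps was at 5.97 ± 1.53 CPM in SmoM2 Con (SD, n = 3), at 6.56 ± 0.536 in Gnas-eKO Con and at 1.15 ± 0.0923 in PKI Con. H2-Ea, the alpha chain row that pairs with H2-Eb1, was at 0.505, 0.516 and 1.08 CPM in SmoM2 Con and at 0 in all 3 PKI Con libraries.

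PKI BCC replicate 3 lay between the models for these rows. It had 4.85 CPM of H2-T10 against 1.11 to 1.79 CPM in the other PKI tumours, 4.26 CPM of H2-T-ps against 0.671 to 1.28 and 0.267 CPM of H2-Ea, where the other 6 PKI libraries had 0. In the same library H2-Q1 was at 0.59 CPM, against 0.105 CPM or less in the other PKI libraries, and H2-T22 (14.9 CPM) and H2-Eb1 (30.6 CPM) were the lowest of the PKI tumours. H2-D1 (594 CPM) and H2-Q4 (32.3 CPM), both low in PKI Con, were the highest of the PKI tumours in this library. The reason was not tested.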
